A study of Homo sapiens with 26 samples.

Results

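The 2 kits that remove ribosomal RNA on beads, RiboCop and Ribo-Zero Gold, were compared directly in ribosome profiling libraries of HEK293T, an embryonic kidney cell line. The comparison uses the 2 libraries titled RiboCop and the 2 titled Ribo-Zero Gold, 4 of the 26 libraries of the series, chosen by their titles alone. All 4 came from HEK293T cells in serum-containing medium, with no genotype or other treatment labelled. The cells were lysed with cycloheximide, a drug that holds cytosolic ribosomes on mRNA, and digested with RNase I. Fragments labelled 15 to 35 nt were selected, and the labels call the Ribo-Zero Gold reagent the legacy version. The step of library making at which either bead kit was applied is not clear from the labels. The same table holds 2 undepleted libraries, used here as the background, and 2 libraries depleted with NEBNext, which digests rRNA with a nuclease. The labels number the replicates and do not say whether they are separate cultures. Each p-value rests on counting error and on a spread between the libraries that is estimated partly across genes and may be technical.

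A ribosome shields a short piece of the mRNA it is translating, and sequencing these pieces, the footprints, gives the amount of translation on each coding sequence. Most RNA left after the nuclease is broken ribosomal RNA of similar length, so kits capture it with complementary probes and pull it out on magnetic beads. The cytosolic ribosome translates the nuclear-encoded mRNAs. A separate ribosome inside mitochondria translates the mRNAs of the mitochondrial genome, which encode core subunits of the respiratory chain and of the ATP synthase.

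Values are read counts per coding sequence and are given as CPM, the count per 1000000 counts of the library. The Ribo-Zero Gold libraries held 351370 and 421521 counts and the RiboCop libraries 156200 and 290502, so 3 counts correspond to 7.12 to 19.2 CPM. At least 100 counts were reached by 649 and 821 genes with Ribo-Zero Gold and by 246 and 512 genes with RiboCop. The intermediate filament gene VIM, high in HEK293 lines, had 145 to 444 counts in the 4 libraries. The neurofilament gene NEFM, another marker of the line, had 44 to 127, while the keratin gene KRT8 had at most 1. Of 15 markers of erythroid cells and K562, a leukaemia line also in the series, 11 had no count in any of the 4 libraries. The haemoglobin gene HBB reached 6 counts in 1 RiboCop library, while the haemoglobin genes HBG1, HBG2, HBE1 and HBZ had none.

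Of the 4410 coding sequences tested, 7 had higher counts with RiboCop than with Ribo-Zero Gold at an adjusted p under 0.05 (edgeR's quasi-likelihood test), which is 0.159% of those tested. No gene was lower at that threshold (0.0%). At an unadjusted p under 0.05 there were 139 higher genes (3.15%) and 136 lower genes (3.08%), 275 in all (6.24%) where 220.5 would pass by chance. The 7 genes were 3 nuclear-encoded ones, PTMA, HMGN5 and BTBD2, and 4 mitochondrial ones, MT-ND5, MT-CYB, MT-CO3 and MT-ND4. DESeq2 called PTMA alone, with none lower and 29 genes at an unadjusted p under 0.05. Its standard errors were larger, 0.18 for PTMA and 0.19 for MT-CO3, beside 0.12 for each in edgeR. Among the 538 genes averaging 100 counts or more over the 4 libraries, 90% of log2 fold changes lay between -0.23 and 0.22, and 5 exceeded 0.5 in either direction.

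**Figure D1:**
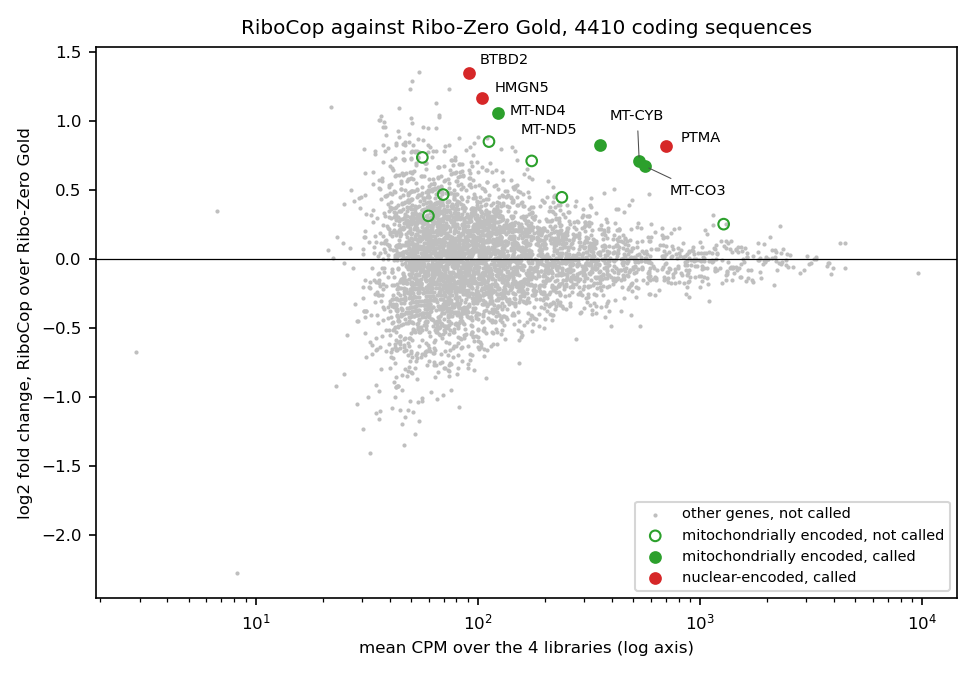
Log2 fold change of RiboCop over Ribo-Zero Gold (vertical axis) against mean CPM over the 4 libraries (horizontal log axis) for the 4410 coding sequences tested, 1 point per gene. Filled points are the 7 genes past an adjusted p of 0.05, all above 0, and open green circles are the 7 mitochondrially encoded mRNAs that did not pass, also all above 0.

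PTMA (ENST00000341369.11, GRCh38 chr2:231708516-231713536, plus strand) encodes prothymosin alpha, a small and very acidic nuclear protein that binds histones. Its footprints stood at 541 and 477 CPM with Ribo-Zero Gold and at 928 and 874 CPM with RiboCop. Both RiboCop libraries lay above both Ribo-Zero Gold libraries, and the difference was 1.76-fold (log2 fold change 0.82 ± 0.12 SE, n = 2 per kit, adjusted p = 1.10e-08 in edgeR). The undepleted libraries held 949.9 and 958 CPM, so the RiboCop values were near the undepleted ones and the Ribo-Zero Gold values below them. With Ribo-Zero Gold against undepleted, PTMA fell by 0.91 on the log2 scale (SE 0.13, edgeR adjusted p = 9.86e-09). RiboCop against undepleted gave -0.10 ± 0.13 (edgeR adjusted p = 0.998), and both contrasts share the undepleted libraries. With NEBNext PTMA stood at 300.0 and 283 CPM, under each of the other 6 libraries. PTMA has processed copies elsewhere in the genome, so its count may include or lack reads that match several places.

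HMGN5 (ENST00000358130.6, GRCh38 chrX:81113701-81201942, minus strand) encodes a nucleosome-binding protein with a long acidic tail. It had 71.2 and 61.7 CPM with Ribo-Zero Gold against 115 and 169 CPM with RiboCop, from 25, 26, 18 and 49 counts. The groups did not overlap, and the log2 fold change was 1.17 ± 0.28 (edgeR adjusted p = 0.0171). The undepleted libraries, at 158 and 137 CPM, lay inside the RiboCop range. BTBD2 (ENST00000255608.8, GRCh38 chr19:1985438-2015724, minus strand) encodes a protein with a BTB domain, a fold through which proteins pair. It had 56.9 and 45.1 CPM with Ribo-Zero Gold and 134 and 127 CPM with RiboCop, from 20, 19, 21 and 37 counts. Again no Ribo-Zero Gold library reached a RiboCop one (log2 fold change 1.35 ± 0.31, edgeR adjusted p = 0.00978). Its undepleted libraries were 75.0 and 130.3 CPM, with the lower one between both kits.

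PTMA passed the threshold in each of 12 alternative fits, with log2 fold changes between 0.73 and 0.91 and adjusted p-values up to 0.00967. HMGN5 and BTBD2 rest on few counts: HMGN5 lost its call without either Ribo-Zero Gold library (edgeR adjusted p = 0.100 and 0.391) and without RiboCop replicate 2 (0.963). BTBD2 lost it without any 1 of the 4 libraries (edgeR adjusted p = 0.0591, 0.378, 0.131 and 0.697). Both were also lost in DESeq2 (adjusted p = 0.9997) and with no filter on low counts (edgeR adjusted p = 0.128 and 0.0683).

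**Figure D2:**
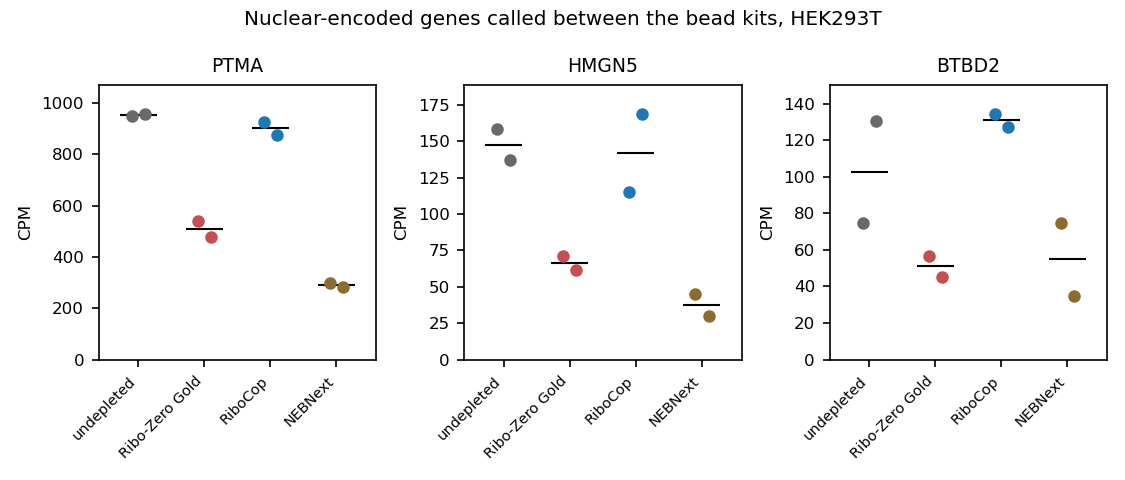
CPM of PTMA, HMGN5 and BTBD2 (vertical axes, from 0) in the 8 HEK293T libraries, grouped by depletion. Each point is a library and each black line the mean of 2 libraries. In each panel both RiboCop points lie above both Ribo-Zero Gold points.

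PTMA and HMGN5 have coding sequences of unusual base composition. PTMA is 74.4% purine (A or G), the fourth highest share of the 4284 tested genes with a coding sequence in GENCODE, and HMGN5 at 80.0% ranks second. PTMA also has the highest share of codons for aspartate and glutamate, 48.2%, and HMGN5 ranks sixth with 36.0%. The top purine rank belongs to PTMS, which encodes parathymosin, the close relative of prothymosin alpha. The 60 nt of each coding sequence with the most purines are given to show the runs, 5′ to 3′ on the sense strand of GENCODE release 29 transcripts (GRCh38), with unbroken purine runs of at least 8 nt in capitals. MT-CYB, called as well, is shown for contrast.
PTMA: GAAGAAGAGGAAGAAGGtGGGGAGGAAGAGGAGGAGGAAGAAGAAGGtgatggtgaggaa
HMGN5: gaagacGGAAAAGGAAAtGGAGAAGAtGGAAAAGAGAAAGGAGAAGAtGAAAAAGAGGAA
PTMS: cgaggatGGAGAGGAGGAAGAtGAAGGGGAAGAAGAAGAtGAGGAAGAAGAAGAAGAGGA
MT-CYB: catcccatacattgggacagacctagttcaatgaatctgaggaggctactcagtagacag

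The PTMA stretch lies in exons 3 and 4 (chr2:231711932-231712450, plus strand, intron included), the HMGN5 stretch in exon 7 (chrX:81114901-81114960, minus strand) and the PTMS stretch in exons 3 and 4 (chr12:6769962-6770178, plus strand, intron included). Each of these 3 holds 56 purines in 60 nt. The MT-CYB stretch (chrM:15202-15261, plus strand) holds 33, with no run long enough for capitals. BTBD2 has no such feature: it is 50.7% purine, and its GC content of 66.8% is reached or exceeded by 93 of the 4284 genes. BTBD2 is 1 of 36 genes (0.840%) with a 30 nt window made only of G and C. The richest 60 nt, in exon 1 (chr19:2015541-2015600, minus strand), hold 58 G or C and are given with runs of at least 8 in capitals.
BTBD2: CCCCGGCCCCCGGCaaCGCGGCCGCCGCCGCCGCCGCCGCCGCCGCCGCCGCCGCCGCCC

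Because these features were picked after the values were seen, the genes that share them are described without a test. Of the 20 tested genes with the highest purine share (65.9% to 80.3%), 18 had a log2 fold change above 0, where 49.6% of all genes tested did, and their median was 0.35. In 11 of them both RiboCop libraries lay above both Ribo-Zero Gold libraries and in 2 below, beside 17.8% and 18.2% of all genes tested. PTMA and HMGN5, from which the feature was picked, are among the 18 and among the 11. PTMS had 28.5 and 30.8 CPM with Ribo-Zero Gold and 64.0 and 79.2 CPM with RiboCop, without overlap (log2 fold change 1.29 ± 0.44, edgeR adjusted p = 0.453, from 10 to 23 counts a library). HMGN2, a nucleosome-binding relative of HMGN5, stood at 429.7 and 418 against 519 and 599 CPM (log2 fold change 0.42 ± 0.13, edgeR adjusted p = 0.280). Its relatives HMGN3 and HMGN1 gave 0.35 ± 0.33 and 0.058 ± 0.22, and neither passed. Below 0 in this set were TPM4, a tropomyosin, at -0.23 ± 0.33, and PPIG, a nuclear prolyl isomerase, at -0.38 ± 0.27. The 20 genes with the most acidic codons, which share members with that set, PTMA and HMGN5 among them, had 16 above 0 and a median of 0.20. In this set 7 were apart upward and 3 downward. Of 242 genes with a purine run of at least 25 nt, 135 were above 0 with a median of 0.04. In 60 of them the RiboCop libraries were the higher ones without overlap and in 36 the lower ones. The 2 called were PTMA and HMGN5, the genes this feature was picked from, beside 0.159% of all genes tested. The 36 genes with a window of only G and C had 22 above 0 and a median of 0.04, with 8 apart upward and 6 downward. In the highest of 5 equal groups of nuclear-encoded genes by purine share (855 genes), 51.8% were above 0 with a median of 0.0096. Over 4273 nuclear-encoded genes the fold change had a Spearman rho of -0.04 with purine share, and over the 508 of them averaging 100 counts or more it was 0.071. With the highest purine share in any 30 nt the values were 0.050 and 0.178.

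Footprints of the mitochondrially encoded mRNAs were higher with RiboCop as a group. Of the 13 such mRNAs, 11 passed the filter on low counts. All 11 had a log2 fold change above 0, from 0.25 to 1.06 with a median of 0.71, beside a median of -0.002 over all genes tested. In 10 of the 11 both RiboCop libraries lay above both Ribo-Zero Gold libraries, beside 17.8% of all genes tested. The 4 that passed the adjusted threshold stand beside 0.159% of all genes tested, and the 8 with an unadjusted p under 0.05 beside 3.15%. The list takes all mRNAs of the mitochondrial genome, and earlier results of these data were known when it was written.

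The called mitochondrial genes all lie on the plus strand of GRCh38, as do all the tested mitochondrial mRNAs except MT-ND6. Among subunits of complex I, the NADH dehydrogenase that feeds electrons into the chain, MT-ND5 (chrM:12337-14148) stood at 231 and 282 CPM with Ribo-Zero Gold and 423 and 482 CPM with RiboCop. The groups did not overlap, and the log2 fold change was 0.83 ± 0.16 (edgeR adjusted p = 0.000138). MT-ND4 (chrM:10760-12137) stood at 65.5 and 92.5 against 160.1 and 172 CPM (log2 fold change 1.06 ± 0.26, edgeR adjusted p = 0.0250), again without overlap. MT-ND2 and MT-ND6 were also apart between kits but did not pass, at 0.74 ± 0.38 and 0.47 ± 0.34 (edgeR adjusted p = 0.796 and 0.962). MT-ND1 was the exception to the separation, with 54.1 and 47.4 CPM for Ribo-Zero Gold and 89.6 and 48.2 CPM for RiboCop. Its log2 fold change, 0.31 ± 0.37 (edgeR adjusted p = 0.962), turned to -0.07 without RiboCop replicate 1. MT-ND3 and MT-ND4L were too low to test, with 6 to 12 and 5 to 9 counts in the 4 libraries. MT-ND4L overlaps MT-ND4, so their reads cannot be fully separated.

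MT-CYB (chrM:14747-15887), cytochrome b of complex III, had 381 and 432 CPM with Ribo-Zero Gold and 608 and 706 CPM with RiboCop. The kits did not overlap, and the log2 fold change was 0.71 ± 0.13 (edgeR adjusted p = 0.000102). The 3 mitochondrial subunits of complex IV, the cytochrome c oxidase that passes electrons to oxygen, spanned a range of values. MT-CO3 (chrM:9207-9990) had 441 and 455 against 544 and 819 CPM (log2 fold change 0.67 ± 0.12, edgeR adjusted p = 0.000102). MT-CO2 had 185 and 221 against 256 and 293 CPM (0.45 ± 0.19, edgeR adjusted p = 0.702). MT-CO1, the most abundant of the mitochondrial mRNAs in these libraries by CPM, had 1167 and 1179 against 1280.4 and 1477 CPM, the lowest log2 fold change of the 11 (0.25 ± 0.09, edgeR adjusted p = 0.533). In each of the 3 genes both RiboCop libraries were the higher ones. The ATP synthase genes MT-ATP6 and MT-ATP8 gave 0.71 ± 0.22 and 0.85 ± 0.26 (edgeR adjusted p = 0.277 for both), and their coding sequences overlap.

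**Figure D3:**
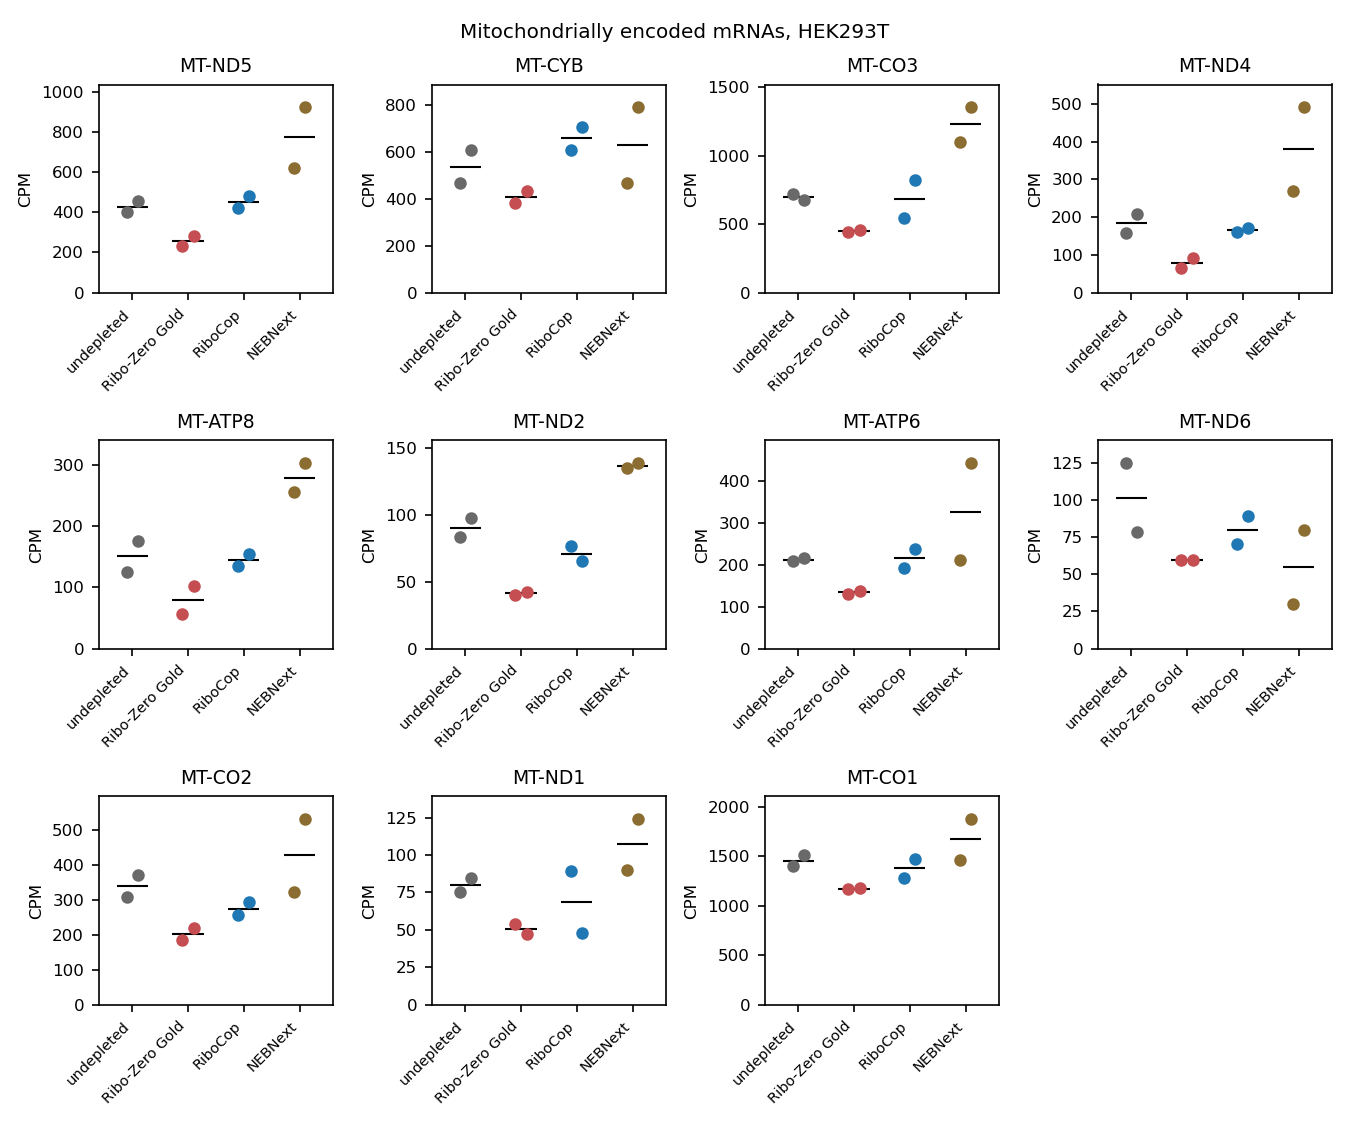
CPM (vertical axes, from 0) of the 11 tested mitochondrially encoded mRNAs in the 8 HEK293T libraries by depletion. Points are libraries and black lines the means of 2. Both RiboCop points are above both Ribo-Zero Gold points in every panel except MT-ND1, where 1 RiboCop library falls between the Ribo-Zero Gold libraries.

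Summed over the 13 mRNAs, mitochondrial footprints made up 0.287% (95% Wilson interval 0.270 to 0.305) and 0.308% (0.292 to 0.326) of counts with Ribo-Zero Gold. With RiboCop they made up 0.392% (0.363 to 0.425) and 0.460% (0.436 to 0.486). The intervals of the kits did not overlap. They cover counting error only. The mean was 1.43-fold higher with RiboCop, 0.426 ± 0.048% against 0.298 ± 0.015% (SD, n = 2), with an exact two-sided permutation p of 0.333, the smallest that 2 against 2 libraries allow. The undepleted libraries held 0.411% and 0.450%, between the 2 RiboCop values, and the NEBNext libraries 0.503% and 0.723%, above all others. The 2 NEBNext replicates thus lay further apart than the means of the 2 bead kits.

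Against the undepleted libraries, which both kits' contrasts share, 3 genes were lower with Ribo-Zero Gold (0.068% of those tested in edgeR), namely PTMA, MT-CO3 and MT-ND4. No gene passed in either direction with RiboCop (0.0%), where 195 genes (4.42%) had an unadjusted p under 0.05 in edgeR, beside 250 (5.67%) with Ribo-Zero Gold. With Ribo-Zero Gold MT-CO3 fell by 0.63 (log2, SE 0.14, edgeR adjusted p = 0.0260), while RiboCop gave 0.041 ± 0.14. MT-ND4 fell by 1.21 with it (log2, SE 0.29, edgeR adjusted p = 0.0393), and RiboCop gave -0.16 ± 0.27. For MT-ND5 the values were -0.74 ± 0.18 and 0.089 ± 0.18, and for MT-CYB -0.41 ± 0.16 and 0.29 ± 0.15, none past the threshold.

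The mitochondrial calls leaned on single libraries. Without RiboCop replicate 2, MT-CO3 dropped to 0.27 on the log2 scale (edgeR adjusted p = 0.963), and MT-ND5 and MT-CYB kept 0.70 and 0.57 but lost their calls (0.753 for both). Without Ribo-Zero Gold replicate 1, MT-ND5 and MT-CYB also missed it (edgeR adjusted p = 0.100 and 0.0591), and MT-ND4 missed it without any 1 of the 4 libraries (0.0543 to 0.753). With no filter on low counts MT-ND4 missed it too (0.178). None of the 4 passed in DESeq2 (adjusted p = 0.9997). The median of the 11 stayed between 0.57 and 0.79 with any 1 library left out.

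Nuclear-encoded subunits of the respiratory complexes, made by cytosolic ribosomes, centred near 0. Of 73 tested, 35 were above 0 and the median was -0.007. None was called, beside 0.159% of all genes tested, too low a share for this to say much. Without overlap, 16 were higher with RiboCop and 13 lower, beside 17.8% and 18.2% of all genes tested. ATP5B, the catalytic beta subunit of the ATP synthase, had means of 1846 ± 54.0 CPM with Ribo-Zero Gold and 1821 ± 122 CPM with RiboCop (SD, n = 2). ATP5I, a small membrane subunit of the same enzyme, had the highest fold change of the list (0.81 ± 0.24, edgeR adjusted p = 0.277), and NDUFA13 of complex I the lowest (-0.57 ± 0.23, edgeR adjusted p = 0.702). With 1 RiboCop replicate left out they ran from 0.46 to 1.27 and from -1.10 to -0.34.

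Ribosomal protein genes showed no called member, beside 0.159% of all genes tested, too low a share for this to say much. In the 4 libraries the large-subunit list summed to 65005.5 to 67598.1 CPM and the small-subunit list to 41632.5 to 42880.4 CPM. The 47 large-subunit genes had a median log2 fold change of -0.043 with 17 above 0, and the 32 small-subunit genes -0.017 with 14 above 0. Of the 47, 10 were higher with RiboCop without overlap and 14 lower, and of the 32, 5 and 8. Over all genes tested these shares were 17.8% and 18.2%. RPL5, the most abundant of the large-subunit genes by CPM, had 3009 ± 29.1 CPM with Ribo-Zero Gold and 2868 ± 73.2 with RiboCop, a log2 fold change of -0.078 ± 0.069. The lowest of the large-subunit genes was RPL30 at -0.28 ± 0.14 (-0.56 without RiboCop replicate 2 and -0.049 without Ribo-Zero Gold replicate 2), and the small-subunit genes ranged from -0.20 (RPS25) to 0.25 (RPS14). Many of these genes have near-identical copies, so their counts are uncertain where reads could be shared.

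Acidic nuclear chaperones and related chromatin proteins, the list that holds PTMA, had 17 of 22 members above 0 with a median of 0.14. PTMA was the 1 called, beside 0.159% of all genes tested. In 7 both RiboCop libraries lay above both Ribo-Zero Gold libraries and in 1 below, beside 17.8% and 18.2% of all genes tested. NPM1, the nucleolar histone chaperone and the most abundant of them by CPM, had 3167 ± 77.2 and 3131 ± 207 CPM, a log2 fold change of -0.031 ± 0.068. NAP1L1, a nucleosome assembly protein, was lowest at -0.095 ± 0.11. This list was written with the PTMA result known, so it is no independent evidence of a direction.

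The other lists had medians near 0 and no called gene, beside 0.159% of all genes tested, too low a share for this to say much. Without overlap between kits, 9 of 40 translation factors were higher with RiboCop and 8 lower. For 32 chaperones and chaperonins these counts were 3 and 11, and for 23 cytoskeletal genes 1 and 6. For 16 glycolytic enzymes they were 4 and 1, for 44 histone genes 4 and 5, and for 6 HEK293 markers 0 and 2. Over all genes tested the shares were 17.8% and 18.2%. Translation factors had a median of -0.023 with 18 of 40 above 0, led in CPM by EEF1A1, the elongation factor that brings aminoacyl-tRNA to the ribosome (-0.10 ± 0.054). Chaperones and chaperonins had -0.023 with 13 of 32 above 0. The lowest was DNAJC2, a ribosome-associated cochaperone (-1.07 ± 0.33, edgeR adjusted p = 0.277), which was -0.63 without RiboCop replicate 2. Glycolytic enzymes had 0.057 with 11 of 16 above 0, and GAPDH stood at 4065 ± 116 CPM with Ribo-Zero Gold and 4425 ± 89.4 with RiboCop. Cytoskeletal genes had -0.029 with 8 of 23 above 0, and ACTB gave -0.062 ± 0.062. Replication-dependent histone genes, another group with near-identical copies, had -0.005 with 18 of 44 above 0. Among them HIST1H1C, a linker histone, had 3270.1 and 3404 CPM with Ribo-Zero Gold and 3291 and 3387 CPM with RiboCop. The 6 tested HEK293 markers had a median of -0.016, from -0.20 ± 0.10 for VIM to 0.085 ± 0.32 for IGF2BP3, an RNA-binding protein.

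Outside the called genes, the largest separations among genes averaging 100 counts or more did not pass. Upward these were SNRNP70, the U1 snRNP protein (0.51 ± 0.15), SF3A1 of the U2 snRNP (0.48 ± 0.16), FBL, the rRNA methyltransferase fibrillarin (0.47 ± 0.13), and HMGN2. FBL came nearest, with 475 and 503 CPM against 704 and 668 CPM and an edgeR adjusted p of 0.0939. It passed when only the 4 libraries were fitted (0.0274) and when only genes averaging 50 counts or more over the 8 libraries were tested (0.0097). Downward, the readthrough gene NME1-NME2, which shares sequence with NME1 and NME2 and is uncertain for that reason, had 652 and 617 CPM against 371 and 499 CPM (-0.49 ± 0.13, edgeR adjusted p = 0.103). In each of those fits it was the 1 gene called lower (edgeR adjusted p = 0.0499 and 0.0262). Next came the histone gene HIST1H2AL (-0.48), the proteasome subunit PSMB3 (-0.42), the mitochondrial peroxidase PRDX3 (-0.40), the septin SEPT2 (-0.39), the mitotic cyclin CCNB1 (-0.38), AC138811.2 (-0.38) and the complex I subunit NDUFS5 (-0.37), with edgeR adjusted p-values of 0.277 to 0.771. Several of these values moved by over 1.5 times when 1 library was left out, from -0.90 (without RiboCop replicate 2) to -0.20 (without RiboCop replicate 1) for PSMB3, and from -0.78 to -0.34 for NME1-NME2 without the same libraries. NDUFS5 reached -0.17 without RiboCop replicate 2, and AC138811.2 -0.19 without Ribo-Zero Gold replicate 2. Non-overlapping groups were common at this level, with 98 of the 538 genes higher (18.2%) and 116 lower (21.6%).

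Across the more abundant genes the kits differed by more than replicates of either kit did. Over 369 genes averaging 100 counts or more in the table, the SD of the log2 ratio between a RiboCop and a Ribo-Zero Gold library averaged 0.173, of which counting alone gives 0.141. The part beyond counting was 0.101 ± 0.010 (SD over 4 pairs, which share libraries), with a range of 0.088 to 0.112. The same measure was 0.016 between the RiboCop replicates and 0.028 between the Ribo-Zero Gold replicates, and 0.088 between the undepleted replicates. Every pair across the bead kits lay above both kits' own replicate pairs, and the lowest equalled the undepleted replicate pair to 2 digits. Pairs of Ribo-Zero Gold and undepleted libraries averaged 0.117 ± 0.019 and pairs of RiboCop and undepleted libraries 0.042 ± 0.061. Over the 172 genes averaging 200 counts or more, the kits differed by 0.074, beside 0.047 for each kit's own replicates.

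**Figure D4:**
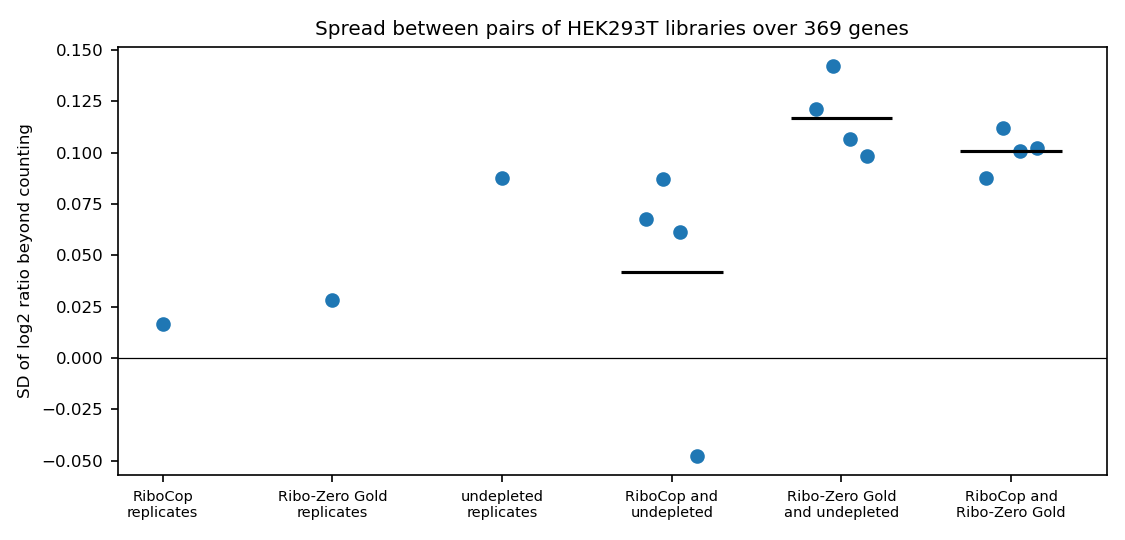
SD across 369 genes of the log2 ratio between 2 libraries after the counting variance is removed (vertical axis), for replicate pairs and for pairs across groups. Points are pairs of libraries and black lines means of 4 pairs. The RiboCop and Ribo-Zero Gold pairs sit at 0.088 to 0.112, above the replicate pairs of both kits. Values under 0 mark pairs whose spread was below that of counting alone.

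Fold changes were slightly higher in genes of higher GC content. Over 4273 nuclear-encoded genes split in 5 equal groups by GC, the median log2 fold change was -0.06 in the lowest (median GC 40.9%) and 0.07 in the highest (61.9%), with 40.7% and 60.6% of genes above 0. Among 508 genes averaging 100 counts or more, the medians ran from -0.07 to 0.01, and Spearman's rho across these genes, which are not independent replicates, was 0.250. For single pairs of a RiboCop and a Ribo-Zero Gold library rho lay between 0.077 and 0.291. Ribo-Zero Gold over undepleted gave -0.301 to -0.105 and RiboCop over undepleted -0.116 to 0.018. Those contrasts share the undepleted libraries, and their ranges overlap. Replicates of 1 kit also differed in this respect, with a rho of -0.097 for RiboCop replicate 1 over 2 and -0.134 for Ribo-Zero Gold. The 4 called mitochondrial genes have a GC content of 44.3% to 46.6%, in the lower part of this scale.

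**Figure D5:**
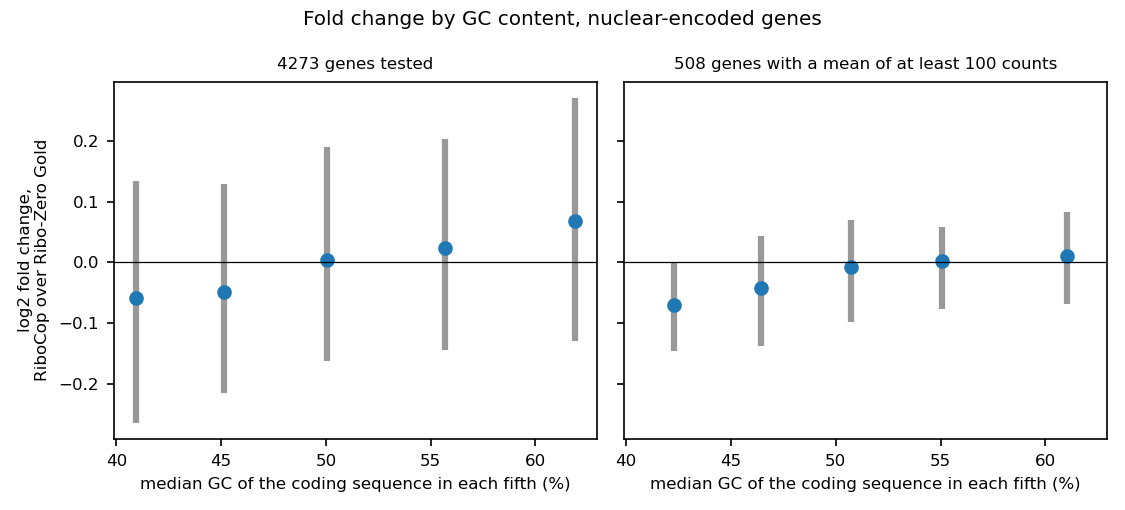
Median log2 fold change of RiboCop over Ribo-Zero Gold (points) with its quartiles (grey bars) in 5 groups of nuclear-encoded genes by GC content of the coding sequence (horizontal axis, %), for 4273 tested genes on the left and the 508 averaging 100 counts or more on the right. The medians climb from -0.06 to 0.07 on the left and from -0.07 to 0.01 on the right, within much wider quartiles.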

How the data were processed

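Ribosome footprints were sequenced from HEK293T cells. Per the file headers, the authors deposited unnormalized read counts for 19478 coding sequences, 1 transcript each, and RPM values that equal these counts scaled to the library total, so only the counts were tested. Reads were aligned with STAR to GRCh38 (hg38) after CASAVA 1.8, per the submitters' processing notes. The counting tool, annotation, use of strand, and handling of duplicates and of reads with several matches are not given in the sources used here. Reads on rRNA were not analysed here.

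Samples were grouped by title. All 8 HEK293T libraries (120019 to 421521 counts) entered 1 fit with edgeR 4.0.16 (R 4.3.3), with TMM, filterByExpr at a minimum count of 10, the quasi-likelihood test and Benjamini-Hochberg adjustment over 4410 genes. Each standard error is the size of the log2 fold change divided by the square root of F, so it too rests on spread shared across genes. The script was tested on simulated data. Alternatives were library scaling, DESeq2 1.42.0, filters, the 4 libraries alone, a replicate block and leaving out each library. Sequences and base shares came from GENCODE release 29, which matched 97.5% of the transcript identifiers by version and may not be the authors' annotation.

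Genes named are all called genes, the 8 largest rises and falls among genes averaging 100 counts or more with no overlap between kits, the mitochondrial mRNAs, and the highest by CPM, largest rise and largest fall of each other list. A gene that met this rule is not reported here. Those described by purine or GC features, and the marker counts, fall outside this rule. The comparison, the genes and the lists were chosen with earlier results of these data known. The RiboCop replicates did not differ beyond sampling noise (chi-square per degree of freedom 1.03, p = 0.103). Their barcodes and totals differ, so both were kept, and counting them as 1 library, an alternative chosen after seeing the data, called the same 7 genes. Spread beyond counting is the root of the variance of log2 ratios less the Poisson variance.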

Additional observations from a re-analysis of the deposited data

How the results depend on the processing

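Of the 7 genes called between the kits, 7 were called with DESeq2 size factors, with total count scaling and with the RiboCop libraries summed. With no filter on low counts 4 were called, and DESeq2 called 1. Leaving out 1 library gave 1 to 5: 2 without Ribo-Zero Gold replicate 1, 4 without replicate 2, 5 without RiboCop replicate 1 and 1 without replicate 2. A mean of at least 50 counts gave 7 genes of 885 tested, 6 higher and NME1-NME2 lower, of which 4 were shared. BTBD2, HMGN5 and MT-ND4 fell below that mean and were not tested there. The fit of the 4 libraries alone gave 9, 8 higher and NME1-NME2 lower. The replicate block, tried because the titles number the replicates, gave 6, with MT-ND4 lost (edgeR adjusted p = 0.0601). Same-numbered RiboCop and Ribo-Zero Gold libraries deviated together with r = 0.117 over 369 genes, and all 6 pairs of groups in the table gave 0.064 to 0.137. With 2 numbers and no label that ties them to a batch or culture, the pairing was not taken as part of the design. The mitochondrial median lay between 0.67 and 0.72 with all libraries and between 0.57 and 0.79 with 1 left out.

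Spread between the kits, 0.101, was 0.074 over genes with at least 200 counts, 0.065 by the scaled median absolute deviation and 0.088 without the mitochondrial mRNAs. It was 0.094 to 0.107 with 1 library left out. Genes near 0 changed sign. HIST1H1C gave 0.0090 with DESeq2 size factors, 0.0039 with total count scaling, 0.0083 in DESeq2, 0.014 at a mean of 50 counts, 0.0052 with the 4 libraries and 0.0013 with RiboCop summed. ATP5B gave 0.0024 with DESeq2 size factors, 0.0071 at a mean of 50 counts and 0.00082 with the 4 libraries. With 1 library left out, ranges crossed 0 for MT-ND1 (-0.067 to 0.81), ATP5B (-0.096 to 0.048), NPM1 (-0.085 to 0.043), NAP1L1 (-0.35 to 0.039), ACTB (-0.13 to 0.030), HIST1H1C (-0.029 to 0.033), HIST1H2BG (-0.042 to 0.53) and IGF2BP3 (-0.15 to 0.26). The cause was not tested. Depth limits the precision of HMGN5, BTBD2 and MT-ND4, which have fewer counts than the other called genes.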
